A study of Mus musculus with 384 samples.

Results

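The lysosomal cathepsins and their partners were followed through single cells of mouse kidney: the cathepsin genes Ctsb, Ctsc, Ctsd, Ctsk, Ctsl, Ctss and Ctsz, Lgmn, the gene of the lysosomal protease legumain, and Cst3, which encodes the cathepsin inhibitor cystatin C. They were taken by name, and all 9 were found among the 40594 genes present in the count tables of both batches. Kidney cells positive for PDGFRB, the receptor for platelet-derived growth factor on pericytes and fibroblasts, were sorted one to a well into 2 gates by CD45, a surface protein of leukocytes that is encoded by Ptprc. Each gate was sorted in 2 batches from mice of 8 weeks, which gave 4 plates of 96 wells, CD45- and CD45+ of batch 1 and CD45- and CD45+ of batch 2. The letters UUO in the well names are not explained in the labels, strain, genotype, treatment and animals are not stated there, and the series' title names parabiosis, monocytes and myofibroblasts of the fibrotic kidney. No animal is tied to a well, so a plate counted as 1 sample, wells were not taken as replicates, no p-value was computed, and the second batch is the only repeat of each comparison.

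Cathepsins are proteases that work in the acid interior of lysosomes and endosomes. Cathepsins B, C, K, L, S and Z are cysteine proteases, cathepsin D is an aspartic protease, and legumain cuts after asparagine and helps to process other lysosomal proteases. Cathepsin S trims the invariant chain, encoded by Cd74, from MHC class II molecules in antigen-presenting cells, cathepsin C activates the serine proteases of leukocyte granules, and cathepsin K is best known as the collagen-degrading protease of osteoclasts. Cystatin C is secreted by most cells and blocks cysteine cathepsins outside the cell.

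Of the 384 wells, 368 held at least 10000 reads on at least 500 genes and were kept, 93 and 93 in CD45- and 92 and 90 in CD45+ (batches 1 and 2 in this order here and in every pair of values that follows). The kept wells had median depths of 225559 to 288818 reads, and the highest correlation between wells of 1 plate was 0.650 to 0.693. The labels were checked against markers: all 8 leukocyte markers reached 100 CPM (read counts scaled to the same total in each plate or well) in both CD45+ plates, against 0 and 1 in CD45-, and 7 and 6 of 8 fibroblast markers did so in CD45-, against 3 and 4 in CD45+. Pdgfrb had a read in 92.5% and 88.2% of CD45- wells but in 3.26% and 6.67% of CD45+ wells, so the transcript of the receptor that both gates select was near absent from most CD45+ wells. CD45+ wells also stood apart by batch: a macrophage-like cluster held 7 wells of batch 1 and 85 of batch 2, and an unnamed cluster led by Ccl4, Apbb1ip and Ccl3 held 63 and 1. The unnamed cluster also held macrophage transcripts: C1qa reached 100 CPM in 57 of its 63 batch 1 wells (median 1761 CPM). In a coarser clustering the macrophage-like cluster held 83 and 86 wells. The part of this split in the differences between batches cannot be told apart from the batch itself. Further CD45+ wells lay in a tubule-like cluster (5 and 3 wells) and in a fibroblast-like cluster (4 and 0 wells), and they are counted in the CD45+ plate levels.

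The promoters of 3 members, whose gate patterns differ most, are shown for reference. Ctsk and Ctss are neighbours on the same strand of mouse chromosome 3, and Ctsc lies on chromosome 7. Among the 9 members, Ctss and Ctsc were those at least 4-fold higher in CD45+ in both batches, and Ctsk was found mainly in CD45- fibroblast-like wells. The 250 bases before each gene start as RefSeq lists it (GRCm38.p6) are given 5′ to 3′ on the gene's strand, at chr3:95526536-95526785 for Ctss, chr7:88277835-88278084 for Ctsc and chr3:95498960-95499209 for Ctsk, all on the plus strand. The Ctss window also ends at the start that GENCODE gives, while for Ctsk the GENCODE start lies further downstream, so that its window does not reach it. Capitals mark GAGGAA, the core read by the myeloid factor PU.1, or its reverse complement TTCCTC.
Ctss: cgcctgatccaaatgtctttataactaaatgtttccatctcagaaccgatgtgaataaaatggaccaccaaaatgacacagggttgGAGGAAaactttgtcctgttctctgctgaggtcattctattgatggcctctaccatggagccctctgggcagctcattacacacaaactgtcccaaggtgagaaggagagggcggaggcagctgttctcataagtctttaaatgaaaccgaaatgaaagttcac
Ctsc: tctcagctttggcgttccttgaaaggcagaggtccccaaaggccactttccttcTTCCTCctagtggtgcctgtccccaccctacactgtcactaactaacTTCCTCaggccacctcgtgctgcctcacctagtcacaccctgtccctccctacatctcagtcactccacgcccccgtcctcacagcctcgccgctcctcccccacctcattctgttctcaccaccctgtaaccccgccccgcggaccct
Ctsk: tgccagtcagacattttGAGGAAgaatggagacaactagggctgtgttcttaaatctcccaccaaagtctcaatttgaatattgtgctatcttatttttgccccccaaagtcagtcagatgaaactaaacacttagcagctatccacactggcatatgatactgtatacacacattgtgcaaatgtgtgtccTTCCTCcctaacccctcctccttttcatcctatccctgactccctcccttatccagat
The core stood once in the Ctss window and at 2 places each in those of Ctsc and Ctsk, the gene with the opposite pattern, and it is common, being held by 23.3% of 32851 RefSeq windows of this length. Among the 8 members with an entry, 4 held it, the other being Cst3. CACGTG, the E-box within the CLEAR element that factors of the TFEB family bind at lysosomal genes, is its own reverse complement and does not overlap the other motif. It was in 6.02% of all windows, in none of the 3 printed, and in windows of 3 members, Ctsd, Ctsl and Lgmn. The 8 members have 9 windows, and Lgmn has 2 of them. In Lgmn, CACGTG was only in the window whose downstream bases were not found in a GENCODE transcript. These matches describe the letters only.

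Ctss separated the gates most widely of the 9 genes (as seen in the plot of single wells). Its level in the 93 CD45- wells of batch 1 ran from 0 over a median of 0 to 1137 CPM, and in the 93 of batch 2 from 0 over 6.72 to 4715 CPM. In the CD45+ wells it ran from 24.4 over 1949 to 10787 CPM in batch 1 and from 54 over 3436 to 20262 CPM in batch 2. No CD45+ well lacked a Ctss read, while the ranges overlapped because a few CD45- wells were high. Summed over each plate, Ctss levels were 35.3 CPM (exact Poisson interval at 95%, 33.2 to 37.5) and 93.3 CPM (89.9 to 96.7) in CD45- and 2995 CPM (2974 to 3016) and 5503 CPM (5476 to 5530) in CD45+. As ratios of CPM with nothing added, these are 84.9-fold and 59-fold higher in CD45+. Intervals here and below cover counting error only, since reads without molecular identifiers are not independent molecules.

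**Figure D1:**
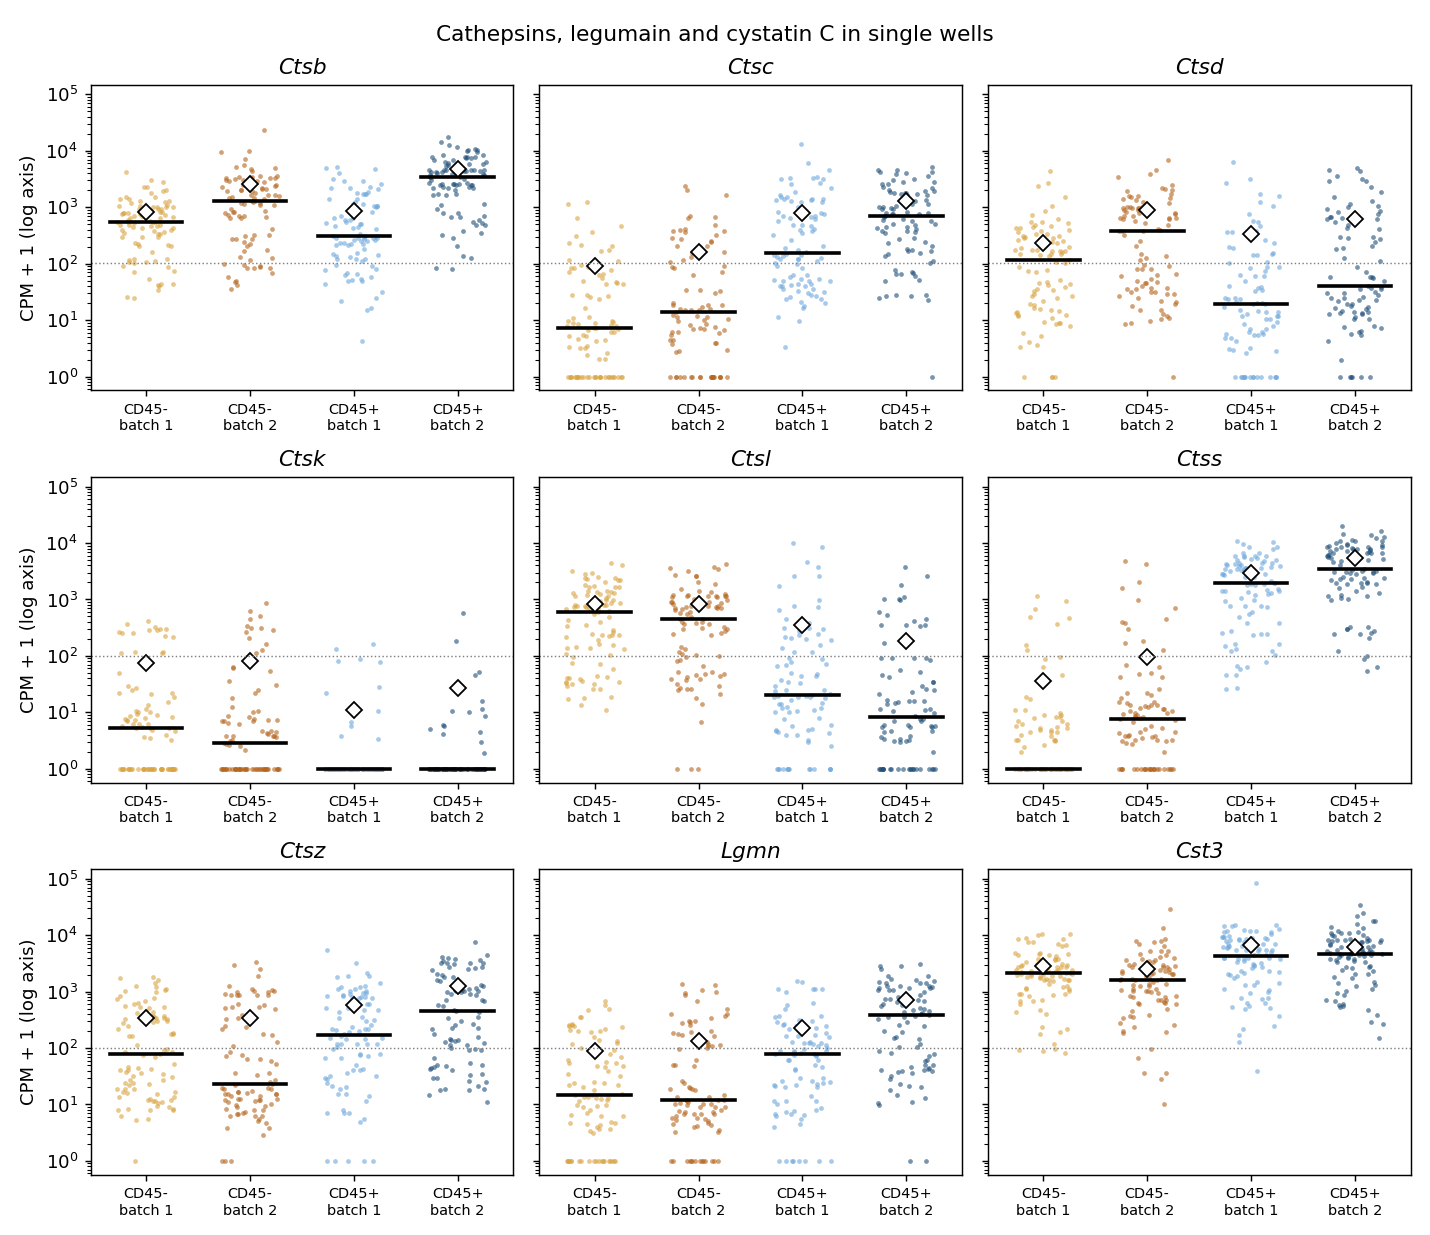
Level of each gene in every kept well, as CPM + 1 on a log axis, by gate and batch. Points are wells, black bars the medians of wells, diamonds the level of the reads summed over the plate, and the dotted line 100 CPM. The CD45+ medians of Ctss, 1949 and 3436 CPM, lie above nearly all CD45- wells, whereas the wells of Ctsb and Cst3 overlap widely between the gates of a batch.

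Ctsc, the gene of the dipeptidyl peptidase that activates granule proteases, was the other member called higher in CD45+, where a call asks for at least 4-fold (2 on the log2 scale) in the same direction in both batches. Its medians over wells were 6.16 and 12.9 CPM in CD45- (highest wells 1241 and 2385 CPM) and 152 and 692 CPM in CD45+ (highest wells 13271 and 5098 CPM). The overlap between gates was wider than for Ctss: 13 and 27 CD45- wells and 57 and 75 CD45+ wells reached 100 CPM. The plate levels were 89 and 158 CPM in CD45- and 803 and 1289 CPM in CD45+, 9.02-fold and 8.16-fold higher in CD45+.

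Ctss and Ctsc were the 2 of 9 members called higher in CD45+, and 0 of 9 were called higher in CD45-. Over the 12882 genes with at least 1 CPM on average, 4.33% were called higher in CD45+ and 12.9% higher in CD45-. The median log2 ratio of the 9 members was 0.76 and 1.27, beside -0.39 and -0.56 for all genes tested. Scaling by TMM factors moved the latter to -0.10 and -0.10, so ratios near 0 depend on the scaling.

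Ctsk had the lowest ratios, with log2 values of -2.75 and -1.61, the second of them short of the 4-fold limit. Most wells of either gate had little of it: the median was 4.25 and 1.85 CPM over CD45- wells and 0 and 0 CPM over CD45+ wells, and the highest wells held 418 and 881 CPM in CD45- and 160 and 578 CPM in CD45+. At least 100 CPM was reached by 16 and 13 CD45- wells and by 2 and 2 CD45+ wells, so that the CD45- plate levels of 73.6 and 81.2 CPM came from a minority of wells. In CD45+ the plate levels were 10.1 and 26 CPM. Of the Ctsk reads of the CD45+ plate of batch 2, 97.3% came from 1 well, and the same well held 93.8% of the Col1a1 reads (type I collagen) of the macrophage-like wells of its plate. Without it the CD45+ level of batch 2 was 0.735 CPM, the log2 ratio -5.57, and Ctsk was then called higher in CD45-. It was also called with the mean of single-well CPM in place of the plate sum (-2.66 and -2.28), and in batch 1, leaving out the CD45+ well with most Ctsk moved the ratio to -3.58. That batch 1 well lay in the tubule-like cluster and held 49.8% of its plate's Ctsk reads.

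Ctsl, which encodes cathepsin L, an endopeptidase of broad use in lysosomes, leaned the same way with log2 ratios of -1.26 and -2.21 and was not called. Its CD45- wells ran from 9.84 over a median of 594 to 4511 CPM in batch 1 and from 0 over 453 to 4307 CPM in batch 2, and its CD45+ wells from 0 over 19 to 9957 CPM and from 0 over 7.22 to 3746 CPM. The gates overlapped over almost their whole range, but 70 and 65 CD45- wells and only 27 and 16 CD45+ wells reached 100 CPM. Taking the median of the wells in place of the plate sum gave -4.90 and -5.79, and Ctsl was then called higher in CD45-. The plate levels were 828 and 836 CPM in CD45- and 346 and 180 CPM in CD45+. In CD45+ of batch 1, 1 tubule-like well held 21.2% of the Ctsl reads, and the level without it was 278 CPM.

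**Figure D2:**
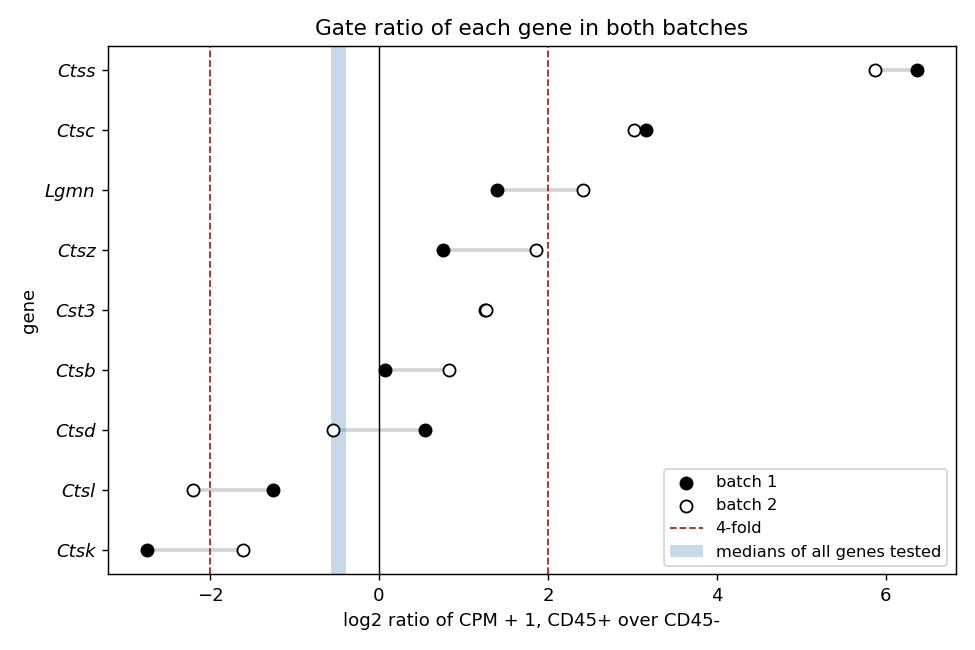
Log2 ratio of CPM + 1, CD45+ over CD45-, of each gene in batch 1 (filled) and batch 2 (open), with dashed lines at 4-fold and a band between the medians of all genes tested in the 2 batches. Only Ctss and Ctsc lie past 4-fold in both batches, and Ctsd lies on either side of 0.

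Lgmn and Ctsz were higher in CD45+ in both batches without reaching the limit in both. Lgmn stood at 86.2 and 130 CPM in CD45- and 229 and 700 CPM in CD45+ (log2 ratios 1.4 and 2.42), with medians over wells of 13.8 and 10.8 CPM against 77 and 377 CPM; from those medians the ratios were 2.4 and 5.0, past the limit in both batches. Ctsz, the gene of a lysosomal carboxypeptidase, stood at 344 and 344 CPM in CD45- and 583 and 1253 CPM in CD45+ (0.76 and 1.86), with medians of 76.5 and 21.7 CPM against 167 and 446 CPM. For both genes the ratio was larger in batch 2, and wells at 0 or near 0 were found in each plate.

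Cst3 was shared by nearly all wells. It reached 100 CPM in 89 and 87 CD45- wells and in 91 and 90 CD45+ wells, so that each of the 90 kept CD45+ wells of batch 2 was above that level. Plate levels were 2860 and 2545 CPM in CD45- and 6812 and 6127 CPM in CD45+, 2.38-fold and 2.41-fold higher in CD45+. This was the member whose ratio moved least between the batches, although 1 CD45+ well of batch 1 with 83651 CPM held 18.1% of its plate's Cst3 reads; the level without it was 5664 CPM.

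Ctsb and Ctsd, the genes of cathepsins B and D, were called for neither gate and varied more between batches than between gates. Ctsb stood at 826 and 2639 CPM in CD45- and at 868 and 4677 CPM in CD45+, log2 ratios of 0.07 and 0.83, while batch 2 was 3.20-fold above batch 1 in CD45- and 5.39-fold above it in CD45+. With the median of the wells the batch 1 ratio of Ctsb was -0.80. Ctsd stood at 232 and 898 CPM in CD45- and at 340 and 615 CPM in CD45+, ratios of 0.55 and -0.55 with opposite sign, and batch 2 was 3.88-fold and 1.81-fold above batch 1. Its batch 1 ratio became -0.14 without 1 CD45+ well that held 39.5% of the plate's Ctsd reads (210 CPM without it) and -2.59 with the median of the wells, at which batch 2 gave -3.23 and Ctsd was called higher in CD45-; its batch 2 ratio became 0.02 with TMM factors.

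Shares of wells with a read were compared at equal depth. In wells of at least 50000 reads thinned to 50000, a Ctss read was found in 76 of 76 and 78 of 78 CD45+ wells (100%, exact 95% intervals 95.3% to 100% and 95.4% to 100%) and in 19% (11% to 29.4%) and 29.3% (19.7% to 40.4%) of 79 and 82 CD45- wells. A Ptprc read was found in 0 of 79 CD45- wells, which allows up to 4.56%, and in 4.88% of 82; in CD45+ it was found in only 71.1% and 50%, so Ptprc was detected less well than Ctss. In unthinned CD45- wells a Ptprc read was found in 4.3% and 12.9%. A Ctsk read was found in 35.4% (25% to 47%) and 25.6% (16.6% to 36.5%) of CD45- wells and in 7.89% (2.95% to 16.4%) and 5.13% (1.42% to 12.6%) of CD45+ wells. Ctsl had a read in 94.9% and 93.9% of CD45- wells and in 61.8% and 44.9% of CD45+ wells, and Ctsc in 39.2% and 52.4% against 94.7% and 97.4%. For Ctsb and Cst3 all 4 shares lay between 97.4% and 100%.

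To see which members CD45+ wells share with which CD45- cells, CD45- wells were divided by clustering without the 9 members and without other lysosomal genes. Mesenchymal-like wells, from 2 fibroblast-like clusters, numbered 48 and 62, and endothelial-like wells 29 and 22. Clusters followed the batch as well, so values are given per batch.

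Within CD45-, Ctsk was found mainly in mesenchymal-like wells. There its level was 106 CPM (interval 102 to 111) in batch 1 and 109 CPM (105 to 114) in batch 2, with 13 and 13 wells of at least 100 CPM, against 5.29 CPM (3.78 to 7.20) and 2.93 CPM (1.70 to 4.68) and no such well in endothelial-like wells, a log2 ratio of -4.09 and -4.81 for endothelial-like over mesenchymal-like. The other 3 CD45- wells of batch 1 with that level lay in a shallow cluster of 14 wells led in part by haemoglobin genes, in which Col1a1 also reached 100 CPM in 13 wells. Of the 9 members Ctsk was the only one called in this comparison, in which 12% of 11772 genes were called higher in mesenchymal-like and 3.47% higher in endothelial-like wells. Ctsl (1023 and 947 CPM against 314 and 403 CPM) and Lgmn (109 and 161 CPM against 34.1 and 43 CPM) were higher in mesenchymal-like wells in both batches within the 4-fold limit. Against the mesenchymal-like wells, CD45+ wells had Ctsk log2 ratios of -3.27 and -2.03, a call close to the limit in batch 2. Leaving out any 1 of 16 wells (7 CD45+ and 9 mesenchymal-like of batch 2) ended it, with ratios of -2.0 to -1.82. Leaving out the CD45+ well with most Ctsk kept the call, with ratios of -4.11 in batch 1 and -5.99 in batch 2.

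Ctss was low in mesenchymal-like wells, at 15.4 and 74.4 CPM, and higher in endothelial-like wells, at 94 and 208 CPM, log2 ratios of 2.53 and 1.47 for endothelial-like over mesenchymal-like. In each class few wells carried it: 1 and 9 mesenchymal-like wells and 4 and 4 endothelial-like wells reached 100 CPM. In batch 1, 1 mesenchymal-like well held 85.6% of that class's Ctss reads, and the class stood at 2.25 CPM without it. The same well held 88.5% of the class's reads of the macrophage marker C1qa and 77.2% of its Cd74 reads. In batch 2 the well with most Ctss held 47.9% and had Cd74 at 18823 CPM. Without it the class stood at 39.1 CPM, the ratio was 2.38 and Ctss was called higher in endothelial-like wells. That call leaves out a well on 1 side only. In batch 2, 1 endothelial-like well held 31.6% of its class's Ctss reads and 69.8% of its C1qa reads, and the class stood at 148 CPM without it. The ratio with both wells left out was not computed. CD45+ wells remained far above both classes, with log2 ratios of 7.51 and 6.19 over mesenchymal-like and 4.98 and 4.72 over endothelial-like wells.

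Ctsc was called higher in CD45+ wells than in either class, with log2 ratios of 3.48 and 2.80 over mesenchymal-like wells (71 and 185 CPM) and 2.61 and 3.42 over endothelial-like wells (131 and 119 CPM). Still, 7 and 24 mesenchymal-like and 3 and 2 endothelial-like wells reached 100 CPM of it. Of the 11 and 22 such CD45- wells with at least 50000 reads, 7 and 20 were mesenchymal-like. Only 0 and 5 of the 11 and 22 also held at least 3 leukocyte or macrophage markers at 100 CPM. One endothelial-like well of each batch held 37.3% and 71% of the Ctsc reads of its class, and without them the ratios were 3.22 and 5.12. The batch 2 well also held 69.8% of the C1qa and 37.2% of the Cd74 reads of its class. In batch 1 another endothelial-like well held most of the C1qa reads, 93.3%. Lgmn was also called against endothelial-like wells (2.71 and 3.99) but not against mesenchymal-like wells (1.06 and 2.12). In all, 2 members, Ctss and Ctsc, were called higher in CD45+ wells than in mesenchymal-like wells, where 5.73% of 12480 genes were, and 1, Ctsk, was called lower, where 11.7% were. Against endothelial-like wells 3 were called higher, with 9.06% of 11432 genes, and 0 lower, with 6.46%.

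The other members were spread over the CD45- classes. Ctsb stood at 863 and 3133 CPM in mesenchymal-like and 787 and 1524 CPM in endothelial-like wells, with the higher level in batch 2 in both classes; 1 mesenchymal-like well of batch 2 held 34.2% of that class's Ctsb reads and 1 endothelial-like well of batch 1 held 45.8%, and the levels without them were 2161 and 484 CPM. Ctsd stood at 211 and 787 CPM and at 244 and 618 CPM in these classes. In the 8 tubule-like CD45- wells of batch 2, Ctsd was at 2530 CPM (interval 2470 to 2592), of which 1 well held 63.3%, with 1209 CPM without it. Ctsz stood at 405 and 428 CPM in mesenchymal-like and at 261 and 154 CPM in endothelial-like wells, the last of these at 96.4 CPM without the well that held 38.5% of its reads, and at 14.3 CPM in the same tubule-like wells. Cst3 was close between the classes, at 2704 and 2678 CPM in mesenchymal-like and 3592 and 2672 CPM in endothelial-like wells.

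**Figure D3:**
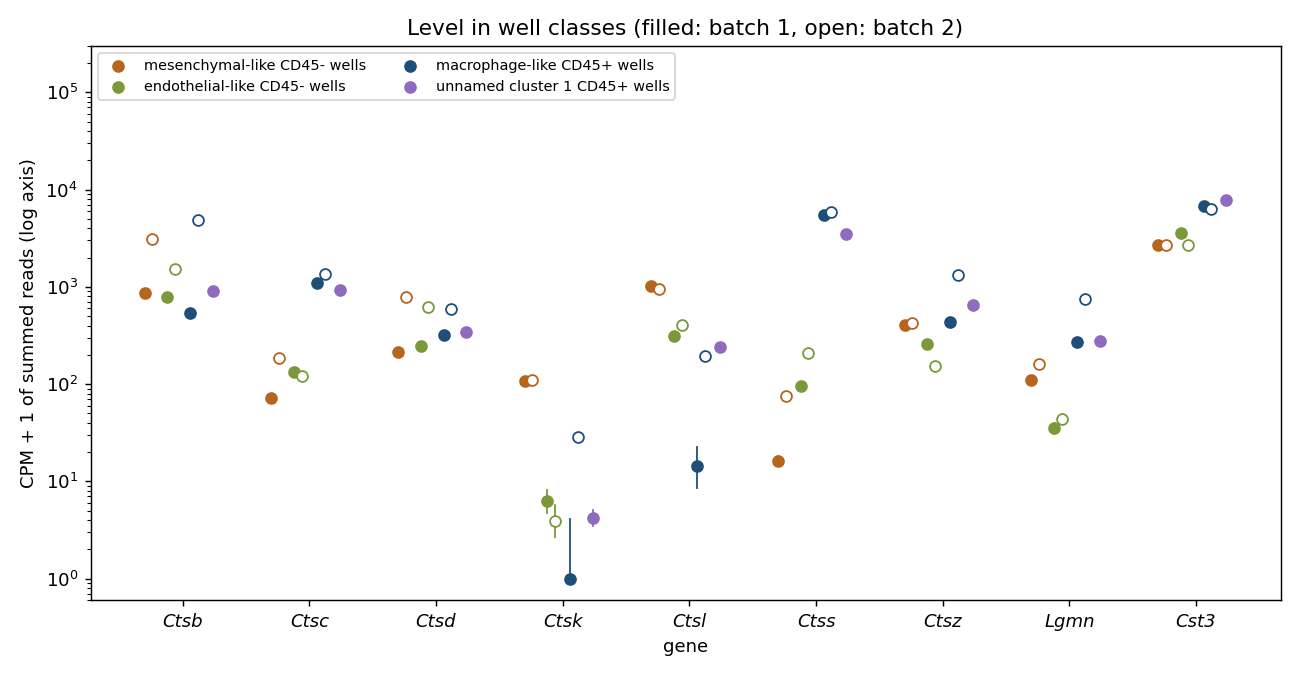
Level of each gene as CPM + 1 of the reads summed over the wells of a class, on a log axis, with 95% Poisson intervals (counting error only). Filled points are batch 1 and open points batch 2; the unnamed cluster has 63 wells in batch 1 and 1 in batch 2 and is shown for batch 1 only. Ctsk stands at 106 and 109 CPM in mesenchymal-like wells and Ctss at 3487 to 5825 CPM in the macrophage-like wells and the unnamed cluster. Other CD45+ clusters are not drawn.

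With macrophage-like wells alone in place of all CD45+ wells, 4 members stayed within 4-fold of the mesenchymal-like wells in both batches, Ctsb, Ctsd, Ctsz and Cst3, where 17.2% of 11975 genes did. Ctss (5480 and 5825 CPM) and Ctsc (1099 and 1369 CPM) were called higher in macrophage-like wells, with 2.84% of genes, and Ctsl (13.3 and 192 CPM, log2 ratios -6.16 and -2.30) was called lower, with 18.9% of genes. Ctsk (0 and 27.8 CPM, log2 ratios -6.74 and -1.94) and Lgmn (269 and 747 CPM, 1.29 and 2.21) passed 4-fold in 1 batch only. Leaving out any 1 of 3 wells made Ctsk called lower, with ratios of -5.95 to -2.0. The batch 1 values rest on 7 wells: 1 of them held 94.2% of the Ctsc reads, and without it Ctsc stood at 76.1 CPM with a ratio of 0.10 and was no longer called, and Ctsl stood at 8.84 CPM without the well that held most of it. The unnamed cluster of 63 CD45+ wells of batch 1 held Ctss at 3487 CPM, Ctsc at 937 CPM, Ctsl at 240 CPM and Ctsk at 3.24 CPM, the last at 0.507 CPM without the well that held 84.8% of its reads. A coarser clustering, at which macrophage-like wells numbered 83 and 86, gave Ctsc at 965 and 1368 CPM (3.75 and 2.88) and Ctsl at 221 and 192 CPM (-2.21 and -2.30), with the same calls for Ctss, Ctsc and Ctsl. A cluster of 13 shallow CD45+ wells of batch 1 had the neutrophil genes Retnlg and S100a9 among its leading genes, but the macrophage gene C1qa was at 100 CPM or more in all 13 (median 1817 CPM), so it is not named for a cell type here. It held Ctss at 951 CPM and Ctsc at 602 CPM, the latter at 205 CPM without the well that held 66.9% of its reads.

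CD45- wells with Ctss were examined one step further. At least 100 CPM was reached in 8 and 14 CD45- wells, of which 2 and 7 had under 50000 reads, although only 14 and 11 CD45- wells in all were that shallow. Of the 6 and 7 deeper ones, which held 125 to 1137 CPM and 381 to 4715 CPM, 4 and 4 were endothelial-like and 1 and 3 mesenchymal-like, and 1 and 4 also held at least 3 leukocyte or macrophage markers at 100 CPM. The 9 macrophage markers summed to 150 and 474 CPM in the CD45- plates, with none at 0, and to 18502 and 29941 CPM in CD45+. Whether leukocyte transcripts carried between wells contribute to Ctss in CD45- was not tested.

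Ctsk and Ctss reached 100 CPM in few of the 93 CD45- wells of each plate, 16 and 13 for Ctsk and 8 and 14 for Ctss, and in none for both genes at once; with so few wells nothing is read from that. In CD45+, 23 of the 27 and 16 of the 16 wells with 100 CPM of Ctsl also held that level of Ctss, as did 84 of 92 and 86 of 90 of all wells. In deep wells, a median of 4 and 4 of the 9 members in CD45- and of 5 and 6 in CD45+ reached 100 CPM, and the summed level of the 9 had medians of 4850 and 5807 CPM against 10475 and 19385 CPM.

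Within the CD45+ plates Ctss varied with the genes of MHC class II. The genes most like it over wells of at least 50000 reads, among 2630 genes with a read in at least 25% of them, were Cd74 (Pearson r of log2(CPM + 1) 0.79 in 76 wells and 0.70 in 78 wells), H2-Aa (0.74 and 0.61) and H2-Eb1 (0.73 and 0.59), which encode the invariant chain that cathepsin S cuts and chains of MHC class II. Ctsc was most like Aif1 (0.45 and 0.47), a macrophage gene, H2-Eb1 (0.51 and 0.45) and C1qa (0.45 and 0.67), a subunit of complement C1q. Lgmn was most like C1qa (0.49 and 0.48), C1qb (0.55 and 0.43) and Ctss (0.52 and 0.42). The wells of a plate share its library and differ in depth and cell type, so these values are descriptions.

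**Figure D4:**
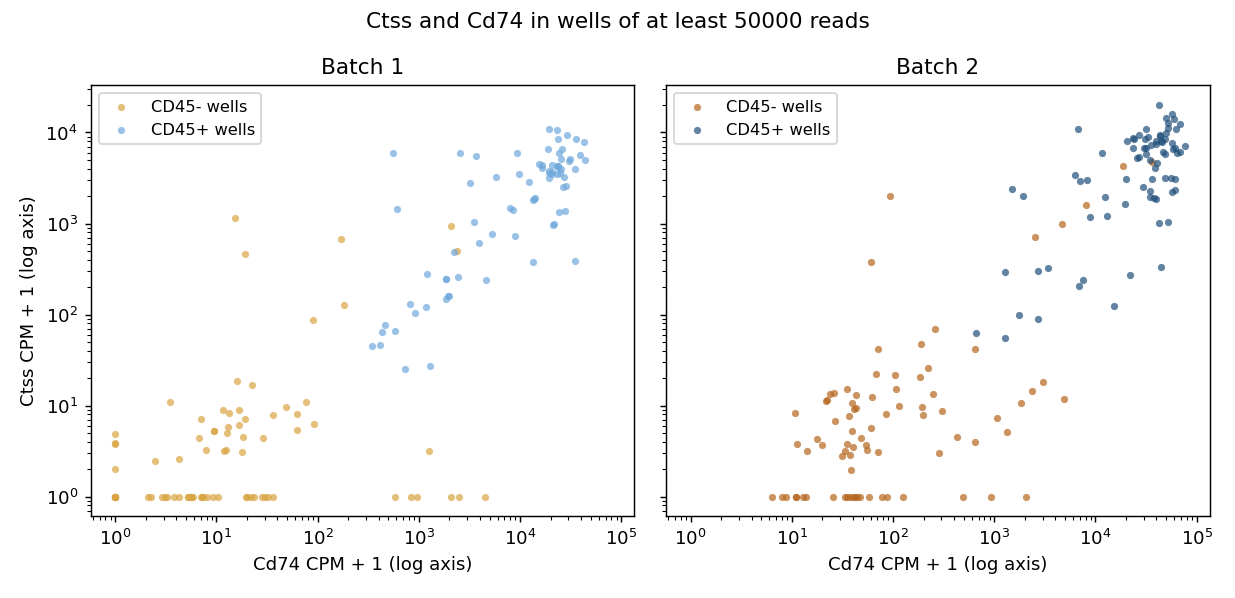
Ctss against Cd74, both as CPM + 1 on log axes, in each well of at least 50000 reads, by batch and gate. CD45+ wells form a rising band (r of 0.79 and 0.70). The CD45- wells with at least 100 CPM of Ctss, 6 and 7, spread widely in Cd74, from 14.2 to 2407 CPM in batch 1 and from 59 to 35964 CPM in batch 2.

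Other members had few companions. In CD45- wells Ctsk was most like Gpx8 (0.45 in 79 wells and 0.43 in 82), an enzyme of the endoplasmic reticulum, and no gene reached 0.4 in both batches with Ctsb, Ctsd, Ctsl, Ctsz or Cst3 in either gate. Among the members themselves, the lower r of the 2 batches had a median of 0.06 over 28 pairs in CD45+ and 0.03 over 36 pairs in CD45-. Of these, 2 pairs reached 0.4, Ctsc with Ctss (0.42 and 0.51) and Ctss with Lgmn, both in CD45+. Ctsl and Ctss had the lowest value in either gate, -0.18 and -0.30 in CD45- and -0.27 and 0.05 in CD45+.

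Other lysosomal genes were called in both directions, few in each. Over 6 lists of 87 other lysosomal genes, 76 could be tested, of which 7 were called higher in CD45+ and 5 higher in CD45-, with median log2 ratios of -0.35 and 0.23, beside the 4.33% and 12.9% of all genes tested that were called in these directions, against which the counts per list are also to be read. Of 10 other lysosomal peptidases 2 were called higher in CD45+, Ctsh, the aminopeptidase cathepsin H (114 and 163 CPM against 581 and 1116 CPM), and Prcp, a carboxypeptidase (3.0 and 0.787 CPM against 24.4 and 30.4 CPM), and 0 higher in CD45-. Without 1 CD45+ well of batch 1 Prcp had a ratio of 1.95 and was no longer called; without 1 CD45- well of batch 1 its level there was 0.894 CPM (ratio 3.74), and without 1 CD45+ well of batch 2 it was 12.1 CPM (2.87). Of 30 hydrolases and activators 2 were called higher in CD45+: the mannosidase gene Man2b1 (log2 ratios 5.09 and 2.36, 6.92 in batch 1 without 1 CD45- well) and the sulfatase gene Galns, whose CD45+ reads lay to 97.8% and 96.8% in 1 well of each batch and whose ratios without them were 0.49 and -0.37. Without 1 CD45- well of batch 2 the Galns ratio was 4.44.

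Among 21 genes of the lysosomal membrane and proton pump, Cd68, a membrane glycoprotein of macrophages, stood at 24.4 and 11.3 CPM in CD45- and 955 and 2045 CPM in CD45+ (5.23 and 7.38; 6.86 and 8.07 without 1 CD45- well each). Laptm5, which is also one of the leukocyte markers above, had 0.613 and 19.6 CPM in CD45- and 820 and 1204 CPM in CD45+ (8.99 and 5.87; 7.25 in batch 2 without 1 CD45- well). In the opposite direction, 3 genes of this list were called higher in CD45-: the proton pump subunit genes Atp6v0d2 (22.9 and 79.2 CPM against 0.113 and 0.141 CPM) and Atp6v1h (10.8 and 46.2 CPM against 0.151 and 9.84 CPM), and Gpnmb, a transmembrane glycoprotein (14.4 and 15 CPM against 0.0755 and 0 CPM). Single CD45- wells held up to 70.7% of the Atp6v0d2 reads, and Atp6v1h (-1.85 in batch 2) and Gpnmb (-1.25 in batch 1) each lost the call without 1 CD45- well. In batch 2, leaving out 1 of 2 wells moved the ratio of Gpnmb to -3.23 or -3.06 (CD45- wells) and that of Atp6v1h to -2.84 or -2.74 (CD45+ wells). For Atp6v0d2 the ratios without 1 such well were -3.55 and -4.43.

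Inhibitors, sorting genes and the TFEB family added little. Of 6 tested cystatins and other inhibitors, Stfa1, a stefin, alone was called, higher in CD45+, with 96.5% and 98.3% of its CD45+ reads in 1 well of each batch and ratios of 0.65 and 0.27 without them. Of 6 sorting genes, Gnptab, which encodes subunits of the enzyme that makes the mannose 6-phosphate tag, was called higher in CD45- (10.3 and 15.3 CPM against 0.906 and 0.0703 CPM), and 1 CD45- well of batch 1 held 91.7% of its reads, with a ratio of 0.04 without it; leaving out 1 of 2 CD45- wells of batch 2 gave -3.27 or -2.97. Of 3 tested genes of the TFEB family, Tfe3 was called higher in CD45- (20.4 and 31.7 CPM against 0.189 and 0.422 CPM; -4.17 and -4.53, and -2.57 in batch 1 without 1 CD45- well).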

How the data were processed

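Single cells were sorted into plates, 1 cell to a well, and made into barcoded libraries with a SMARTer kit, per the labels' protocols. The deposited tables hold raw read counts for each gene in each well; they are whole numbers whose totals differ between wells. STAR (listed as 3.0.4), Subread and featureCounts 1.4.5 were used, per the submitters' processing notes; the genome build and annotation are not given in the sources used here. Repeated lines of an Ensembl gene (598 of 41192 and 595 of 41228, 2.39% and 2.42% of counts) were dropped. Gene symbols are those of the deposited tables, and 40254 of the 40594 identifiers, with all 9 members, were found in a reference name table.

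Wells with at least 10000 reads and 500 genes were kept. Plate levels are CPM of reads summed over kept wells, and gates were compared within a batch as the log2 ratio of CPM + 1, which understates ratios of low genes. A call needs at least 4-fold in both batches. Exact Poisson and Clopper-Pearson 95% intervals cover counting error only. Clustering used scanpy 1.11.5 with leidenalg 0.10.2 (10000 counts per well, 2000 variable genes, 20 components, 15 neighbours, Leiden resolution 1), and classes were named from at least 3 markers; no doublet caller was run. TMM factors came from edgeR 4.0.16 and size factors from the DESeq2 1.42.0 method. All 9 members are named; from the lysosome lists, called genes with the highest mean level in each direction, and from genes alike, up to 3 with r of at least 0.4 in both batches. Gpnmb, and the single wells described for holding most reads of a gene, were picked after their values were seen. Members, lists and markers were chosen with earlier results of these data known.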

Additional observations from a re-analysis of the deposited data

Results flagged for a closer look

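Ctsd, the aspartic cathepsin, was the member whose gate difference had opposite sign in the batches: the log2 ratio of CD45+ over CD45- was 0.55 in batch 1 and -0.55 in batch 2, and the difference between the batches was not tested. In batch 1 its plate level was 232 CPM in CD45- and 340 CPM in CD45+, and in batch 2 it was 898 and 615 CPM. The positive sign of batch 1 rested on 1 CD45+ well, without which the ratio was -0.14. With the median of the wells both ratios were negative, -2.59 and -3.23.

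The 16 wells that were too shallow to be kept also held reads of the 9 genes. Summed over the 6 such CD45- wells the 9 genes stood at 4676 CPM (202 of 43200 reads), and over the 10 such CD45+ wells at 12488 CPM (1005 of 80480 reads), beside 6595 and 16811 CPM in the kept wells of the gates. Ctss stood at 185 CPM in the CD45- and 2808 CPM in the CD45+ wells left out, on 8 and 226 reads.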

How the results depend on the processing

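The count of 2 members higher in CD45+, Ctss and Ctsc, was 2 under the alternatives tried other than the fold limit and the median of wells (3, with Lgmn added), and 2 with each well left out in turn. A limit of 2-fold gave 4, and one of 8-fold gave 2. The share of all genes was computed at 4-fold only, so counts here at 2-fold and 8-fold have no share to be read against. The count of 0 members higher in CD45- was 1 (Ctsk) with the mean of single-well CPM, 2 (Ctsl and Ctsd) with the median, 1 (Ctsk) without wells holding at least 3 markers of the other gate, 2 at a limit of 2-fold, and 0 to 1 with each well left out in turn; the well concerned is the CD45+ well with most Ctsk. The count of 4 members within 4-fold between macrophage-like and mesenchymal-like wells was 2 at a limit of 2-fold and 5 with the mean of single-well CPM; with all kept CD45+ wells, an alternative chosen after seeing the data, it was 4. Over these alternatives the log2 ratio of Ctss ran from 5.70 to 10.93 and from 4.74 to 8.80, and that of Ctsc from 3.04 to 4.42 and from 2.90 to 5.64. The ratio of Ctsb changed sign in batch 1 (-0.80 with the median of wells), and that of Ctsd in batch 1 (-0.09 with the mean of wells, -2.59 with their median) and in batch 2 (0.02 with TMM factors, 0.07 with median-of-ratios factors); the cause was not tested. No paired analysis was possible because wells are single cells whose numbers do not tie a well of one gate to a well of the other. With 1 plate per gate and batch, the number of plates limits the precision of every ratio. Single wells moved some ratios as well, as for Ctsk in batch 2 (-1.61, and -5.57 without 1 CD45+ well).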
